A study of Mus musculus with 23 samples.

Results

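Metallothioneins and the genes that handle zinc beside them were followed through induction of the leukaemic fusion protein RUNX1-ETO in mouse embryonic stem (ES) cells differentiating into blood. There were 6 genes, namely Mt1, Mt2, Mt3, Mtf1, Slc30a1 and Slc39a10, out of 20145 genes with a probe on the array, and all 6 were among the 15202 genes bright enough to be tested. Each gene was read from its brightest probe, found by matching the probe's transcript identifier to the gene symbol. The genes were chosen by their measured difference between induced and uninduced early blood precursors, so those differences are given as a description, with no test. Mean Mt1 and Mt2 were higher with induction at every stage measured, from 42.6-fold for Mt1 and 51.5-fold for Mt2 in haemogenic endothelium to 1.79-fold, which did not pass the test, and 4.57-fold in the first progenitors. Mt3 and the zinc sensor Mtf1 were within 1.52-fold of their uninduced level at every stage.

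The cells came from A2lox, 1 engineered mouse ES line labelled C57BL/6, in which a tetracycline-responsive promoter drives an HA-tagged human RUNX1-ETO when doxycycline (Dox) is given and the mouse Runx1 genes are intact. Blast cultures received 0.1 μg per ml Dox on day 1 and were sorted on day 2 into haemogenic endothelium (HE; KIT+, Tie2+ and CD41-), the next stage, in which endothelial cells have begun to express CD41 (HE2; KIT+, Tie2+ and CD41+), and progenitors that have lost Tie2 (Prog; KIT+, Tie2- and CD41+). For the myeloid progenitors, Prog were placed in expansion medium with cytokines, Dox was added when they were seeded on day 2, and the cells were taken on day 3, after 12 h. RNA was hybridised to 1-colour (Cy3) Agilent SurePrint G3 Mouse arrays, with 3 arrays for each stage without (uninduced) and with (induced) Dox, except Prog with 2 arrays of each. A further array of uninduced Prog, which its labels call both a technical replicate and replicate 3, was normalised with the others and its value is given apart. All groups share the line and the transgene, and no array of Dox-treated cells lacking the transgene was analysed here, so Dox and RUNX1-ETO cannot be told apart. Values are log2 of the background-corrected and quantile-normalised spot intensity, and a difference of 1 is 2-fold. A gene was called changed at P of at most 0.001 and at least 2-fold in a limma fit over all genes, and adjusted P is the Benjamini-Hochberg value over the 15202 genes. Replicates are titled biological, but the third induced myeloid progenitor array is also described as technical, and nothing says that they came from separate differentiations, so P-values measure the spread between these arrays.

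Metallothioneins are small cysteine-rich proteins that bind zinc and copper in the cytosol. Mt1 and Mt2 are made in most tissues, whereas Mt3 is known from the brain and Mt4 from stratified epithelium. The transcription factor MTF1 senses free zinc and activates Mt1, Mt2 and Slc30a1 through short promoter motifs called metal response elements. SLC30A1 (ZnT1) exports zinc through the plasma membrane and SLC39A10 (ZIP10) imports it, so metal binding, sensing, export and import are each represented among the 6 genes.

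The promoters of the 6 genes are shown first because metal response elements are what their known regulation turns on. In RefSeq (mouse build GRCm38.p6), Mt1 lies on chromosome 8 from 94178883 to 94180327, Mt2 beside it from 94172618 to 94173567 and Mt3 from 94152607 to 94154148. Mtf1 lies on chromosome 4 from 124802549 to 124849800, and Slc30a1 and Slc39a10 lie on chromosome 1 from 191906697 to 191913248 and from 46807544 to 46925776. The core of the metal response element, TGCACNC or TGCGCNC, was searched on both strands in 300 bases of each promoter, 250 before the listed transcript start and 50 from it. The cores found are shown in capitals with 5 bases on either side, read along the strand that holds the core, and the position is that of the core's first base on the gene's strand, counted from the transcript start.
Mt1 at position -23 (chr8:94179061-94179077, + strand): cgctgTGCACACtggcg
Mt1 at position 3 (chr8:94179086-94179102, + strand): agctcTGCACTCcgccc
Mt1 at position 21 (chr8:94179104-94179120, + strand): aaaagTGCGCTCggctc
Mt2 at position -223 (chr8:94172390-94172406, + strand): gcctcTGCACCCggccc
Mt2 at position -128 (chr8:94172485-94172501, + strand): cccttTGCGCTCagctc
Mt2 at position -50 (chr8:94172563-94172579, - strand): gagccTGCACACgccct
Mt2 at position 5 (chr8:94172617-94172633, - strand): gggccTGCGCACgaccc
Mt3 at position 28 (chr8:94152629-94152645, + strand): agcagTGCACACacacg
Slc30a1 at position -43 (chr1:191906733-191906749, - strand): tgcttTGCACTCggaac
Slc30a1 at position 31 (chr1:191906806-191906822, - strand): gcgacTGCGCTCggccc

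Mt2 thus held 4 cores, Mt1 3, Slc30a1 2 and Mt3 1, and none was found in this window of Mtf1 or Slc39a10. The listed starts of Mt1 and Slc30a1 lie inside the gene's annotated span, downstream of its outermost base, so the cores before those starts can be transcribed sequence. Counts and positions hold only for the listed starts, and whether these cells use them was not examined. Cores outside these windows were not searched, so the counts do not rank the genes. For comparison, 25.7% of 32851 promoters of 27025 genes held at least 1 core, 7.11% at least 2, 1.97% at least 3 and 0.517% at least 4, so a match to these letters is common. RUNX motifs (TGTGGT or TGCGGT, both strands) were found once, in Mt2 at position -196, against 22.4% of all promoters with at least 1. The antioxidant response core (TGACNNNGC, both strands) was found in Mt2 at position -79 and Slc30a1 at -82, against 12.4% of all promoters. Mt2, the member with the largest difference at every stage and the only one with all 3 kinds of match, is shown over the whole 250 bases before its start, with the metal response element cores on either strand in capitals.
Mt2 promoter (chr8:94172368-94172617, + strand): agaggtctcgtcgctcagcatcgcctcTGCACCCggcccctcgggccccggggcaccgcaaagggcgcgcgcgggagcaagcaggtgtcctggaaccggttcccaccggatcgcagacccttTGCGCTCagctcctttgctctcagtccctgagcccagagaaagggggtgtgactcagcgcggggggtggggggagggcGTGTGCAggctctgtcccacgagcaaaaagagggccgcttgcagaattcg

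**Figure D1:**
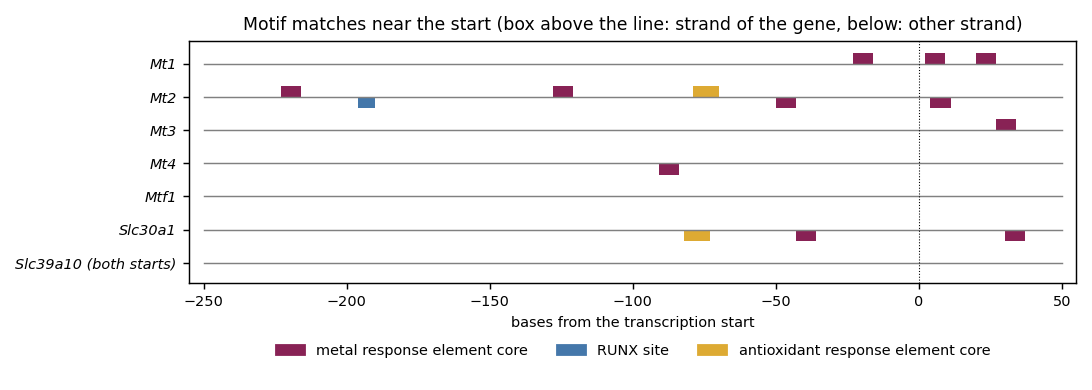
Matches to the 3 motifs in the promoters of the 6 genes and of Mt4, from 250 bases before to 50 bases after the transcript start (horizontal axis, bases; one row per promoter). Boxes above a line lie on the gene's strand and boxes below on the other strand; Mt2 and Mt1 hold 4 and 3 metal response element cores, Slc30a1 2, and Mtf1 and Slc39a10 none.

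Between 48.8 and 78.4% of spots were well above background on an array, and the probes of all 6 genes were so on every array, with no saturated spot. The arrays lay on 3 slides scanned on 2 days, with all myeloid progenitor arrays and the additional Prog array on the third slide, HE, HE2 and uninduced Prog on the first and second slides, and induced Prog on the first slide and the third. The probe for mouse Runx1t1 (ETO), which may or may not detect the human transgene, was higher with Dox by 1.24 in HE (not called), 2.08 in HE2, 3.96 in Prog and 2.06 in myeloid progenitors on the log2 scale. Markers did not follow the labels throughout. Itga2b, which encodes CD41, ranged from 9.49 to 11.46 in uninduced HE, which were sorted as CD41-, and from 6.92 to 8.02 in induced HE. Of the 3 sort markers it was the 1 called lower with Dox in HE, so uninduced and induced HE also differed in a sort marker. The myeloid progenitors combined bright Csf1r (14.07) and Mpo (13.11) with Hbb-bh1 (18.73), Hba-x (18.28) and Gata1 (15.68), which mark red cell precursors.

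Mt1 was at its lowest in uninduced haemogenic endothelium and far brighter there when RUNX1-ETO was induced. In uninduced HE its log2 intensity was 10.63, 10.69 and 9.51 and in induced HE 15.62, 15.66 and 15.78, so the groups were far apart and the induced arrays were closer to each other than the uninduced ones. The difference was 5.41 (95% CI 4.72 to 6.11), or 42.6-fold. In HE2, Mt1 read 12.62, 12.37 and 11.73 without and 15.23, 14.77 and 15.49 with Dox, a difference of 2.92 (2.22 to 3.62) or 7.58-fold. From HE to HE2, Mt1 differed by 1.97 without Dox (1.27 to 2.66) and by -0.53 with Dox (-1.22 to 0.17).

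Mt2 had the largest difference of the 6 genes in both early stages. It read 9.51, 9.72 and 8.95 in uninduced HE and 14.91, 15.1 and 15.22 in induced HE, a difference of 5.69 (5.09 to 6.29) or 51.5-fold. In HE2 the values were 9.47, 9.63 and 9.26 without and 14.07, 13.53 and 14.51 with Dox, 4.58 apart (3.98 to 5.18) or 23.9-fold. For Mt2 the uninduced arrays of HE and HE2 overlapped. Within slides, the differences in HE were 4.96 and 6.22 for Mt1 and 5.3 and 6.21 for Mt2 on the first and second slides, and those in HE2 were 2.73 and 3.4 for Mt1 and 4.52 and 4.76 for Mt2.

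The change with Dox was tested in Prog and in myeloid progenitors. Prog were sorted from blast cultures with the same Dox schedule as HE and HE2, so they are a later stage and not a later time. In Prog, Mt2 read 10.54 and 9.81 without and 12.76 and 11.98 with Dox. It rose by 2.19 (SE 0.349, adjusted P = 0.00071), or 4.57-fold, and was the only one of the 6 genes called, against 3.03% of all genes called higher and 0.704% lower. Mt1 read 14.02 and 12.82 without and 14.54 and 13.98 with Dox, so the groups overlapped, and the difference of 0.84 (-0.02 to 1.69, adjusted P = 0.258) was not called and ranged from 0.24 to 1.44 on leaving out 1 array. In a fit of the Prog arrays alone the change of Mt2 kept its size but not its call (adjusted P = 0.0982).

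Induced myeloid progenitors had the highest mean Mt1 and Mt2 of any group. Mt1 read 15.11, 14.85 and 15 without and 16.71, 17.18 and 17.15 with Dox, and rose by 2.03 (SE 0.332, adjusted P = 0.000321), or 4.08-fold. Mt2 read 12.8, 12.88 and 12.94 without and 15.79, 16.6 and 16.47 with Dox, and rose by 3.41 (SE 0.285, adjusted P = 2.85e-07), or 10.7-fold, within 12 h of induction. Without the third induced array, whose labels disagree, the changes were 1.96 (adjusted P = 0.00242) and 3.32 (adjusted P = 4.25e-06), both called. These were the 2 of 6 genes called higher, against 5.13% of all genes, and none was called lower, against 1.18%. All 6 of these arrays were on 1 slide, so that neither slide nor scan day separates the groups.

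**Figure D2:**
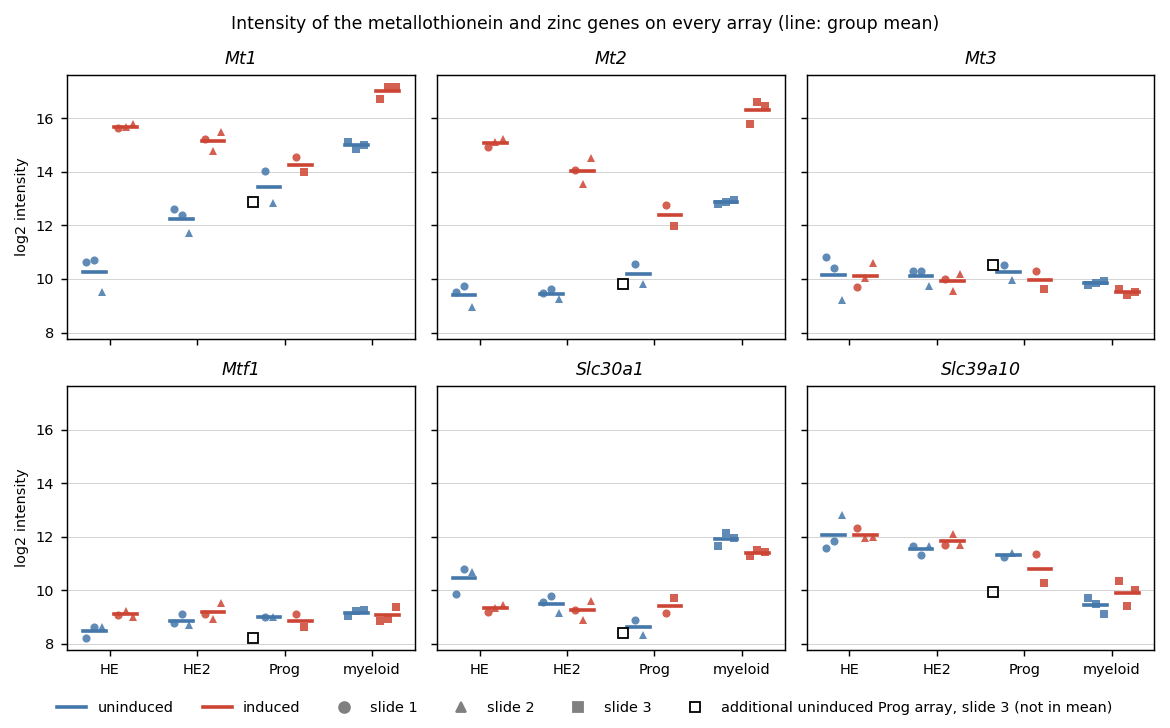
Log2 intensity (vertical axis) of each of the 6 genes on every array, in one panel per gene, by stage and Dox (horizontal axis); colour marks uninduced and induced arrays, marker shape the slide, the open square the additional Prog array, and the line the group mean. Mt1 runs from 9.51 in uninduced HE to 17.18 in induced myeloid progenitors and Mt2 from 8.95 to 16.6, while Mt3 and Mtf1 stay between 8.21 and 10.81 in all groups.

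Between Prog and myeloid progenitors, where the difference was tested, the change was greater in myeloid progenitors by 1.19 for Mt1 (0.08 to 2.29, adjusted P = 0.357; 0.59 to 1.79 on leaving out 1 array) and by 1.22 for Mt2 (0.27 to 2.17, adjusted P = 0.247), and neither was called. None of the 6 genes passed the limma test of that difference, against 1.5% of all genes. In limma 3 of the 6 had an unadjusted P under 0.05, a looser level than the call rule. The share of all genes at that looser level was not computed, here or for the gene lists further on, so such counts cannot be set against all genes. Dox was given for different times and in different media at these stages, so the comparison is of values and not of matched treatments.

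**Figure D3:**
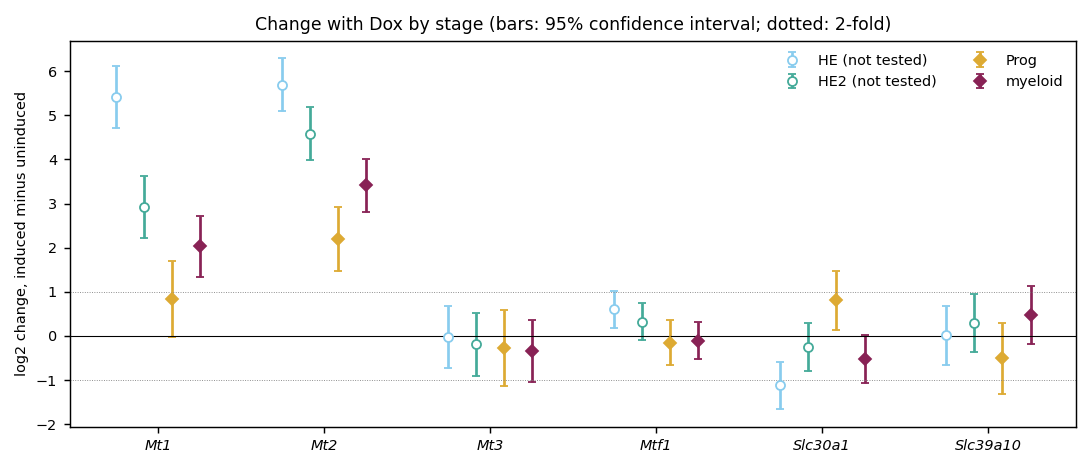
Log2 difference between induced and uninduced arrays (vertical axis, with 95% confidence intervals) of the 6 genes in the 4 stages; open circles are HE and HE2, which were not tested, and diamonds are Prog and myeloid progenitors. Mt2 is above 0 in all stages, from 5.69 in HE to 2.19 in Prog, and Slc30a1 is -1.12 in HE, 0.81 in Prog and -0.52 in myeloid progenitors.

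Markers of other cells moved at the same stages. Embryonic red cell markers (Hba-x and Hbb-bh1, 2 genes) had a summed log2 level of 14.79 to 15.27 in uninduced and 17.21 to 18.18 in induced HE, of 16.15 to 16.58 and 18.2 to 18.45 in HE2, and of 17.3 to 17.59 and 18.41 to 18.83 in Prog, with 1 of the 2, Hbb-bh1, called higher at each; the other, Hba-x, was 8.5 and 8.03 on average in uninduced and induced HE. In myeloid progenitors neither was called, and the sum was 19.41 to 19.6 without and 19.19 to 19.42 with Dox. There Hbb-bh1 read 18.73 on all 3 uninduced arrays and 18.65 to 18.73 on the induced ones. Its highest reading in any group was 18.79, in induced Prog, so a rise in myeloid progenitors could have been missed. Mast cell markers (Cpa3 and Mcpt2) summed to 8.15 to 8.27 in uninduced and 10.18 to 11.56 in induced myeloid progenitors and to 8.35 to 8.6 and 10.1 to 10.67 in Prog. Cpa3 was called higher at both, and Mcpt2 was 7.11 and 6.71 in the myeloid progenitors. In HE, Cpa3 was also called higher (5.31 without and 6.64 with Dox), while Mcpt2 was 6.08 and 5.33. Endothelial markers (3 genes) in myeloid progenitors were 12.59 to 13.01 without and 14.68 to 14.93 with Dox, with 2 called higher. Cardiac and smooth muscle markers (3 genes) were 15.22 to 16.16 in uninduced and 13.5 to 14.05 in induced HE, with 1 called higher and 1 lower, and 10.53 to 11.02 and 12.37 to 12.87 in myeloid progenitors, with 1 called higher. Of these, Acta2 was called lower in HE2 (14.45 without and 11.45 with Dox) and Tnnt2 higher in Prog (8.17 and 10). Of 2 fibroblast markers, Col1a1 was called lower in HE (9.75 and 7.67) and HE2 (9.61 and 6.35), and Col1a2 was not called at either. Of 4 myeloid markers, 2 were called lower in HE2 and 1 in Prog. The part of these cells in the metallothionein differences was not tested, and in RNA from a whole sort a change in the number of cells of a type and in the RNA per cell cannot be told apart.

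Without Dox, Mt1 and Mt2 also differed between stages. The uninduced HE and HE2 arrays entered the differences by which the genes were chosen, so the steps from HE to HE2 and from HE2 to Prog are given with no test. From HE to HE2, Mt1 was 1.97 higher (1.27 to 2.66), or 3.91-fold, and Mt2 0.06 higher (-0.54 to 0.66). From HE2 to Prog, Mt1 was 1.18 higher (0.4 to 1.96) and Mt2 0.72 higher. Without the second uninduced Prog array, the lower of the 2, Mt1 was 1.78 higher, and without the first it was 0.58 higher.

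From Prog to myeloid progenitors, Mt2 rose by 2.70 (2.03 to 3.37, adjusted P = 6.06e-06), or 6.5-fold, and Mt1 by 1.57 (0.79 to 2.35, adjusted P = 0.00362), or 2.96-fold. Together with Slc30a1, 3 of the 6 genes were called higher against 7% of all genes, and Slc39a10 was called lower against 6.93%. These 2 stages lay on different slides, so the slide was also fitted as a block, and the additional Prog array, which shared the third slide with the myeloid arrays, was set beside them after the data had been seen. With the block, Mt2 was 3.34 higher and called (adjusted P = 0.00168), whereas Mt1 was 1.83 higher and no longer called (adjusted P = 0.0711). On the third slide, Mt1 was 2.13 and Mt2 3.05 higher in the 3 myeloid arrays than in that 1 Prog array. The call of Mt1 was also lost without any 1 of the 3 uninduced myeloid arrays (1.51 to 1.63) and without the second uninduced Prog array (0.97, adjusted P = 0.111). Both red cell markers were called higher at this step, with summed levels of 17.3 to 17.59 in Prog and 19.41 to 19.6 in myeloid progenitors, and their part in it was not tested.

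**Figure D4:**
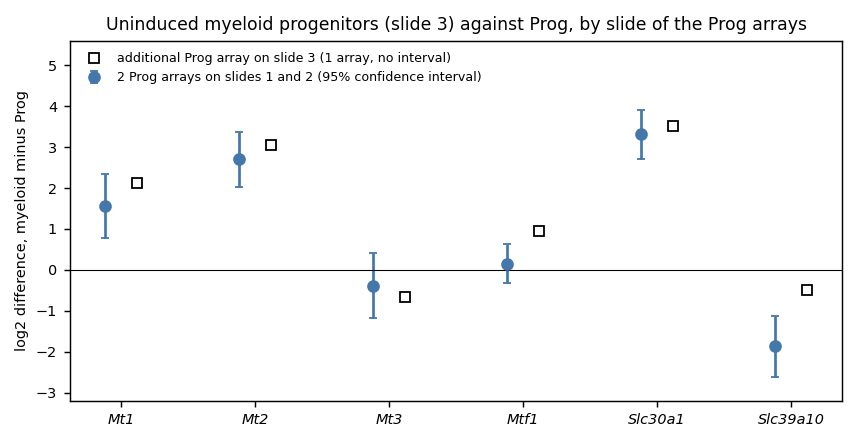
Log2 difference of uninduced myeloid progenitors from uninduced Prog (vertical axis) for the 6 genes (horizontal axis). Filled points with 95% confidence intervals use the 2 Prog arrays of the first and second slides and open squares the additional Prog array on the myeloid slide. Slc30a1 is 3.31 and 3.52 by the 2 routes and Mt2 2.70 and 3.05, while Slc39a10 is -1.87 and -0.50.

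Placed in order of the group means, Mt1 and Mt2 gave the same sequence of groups, from uninduced HE through uninduced HE2 and Prog, induced Prog and uninduced myeloid progenitors to induced HE2, induced HE and induced myeloid progenitors. Neighbouring groups did not overlap at 5 of the 7 steps of Mt1 and 6 of the 7 of Mt2. The groups had been ordered by these same means, and how often this holds over all genes was not computed. Uninduced and induced Prog could not be separated for Mt1, nor uninduced HE and HE2 for Mt2, nor uninduced myeloid progenitors and induced HE2 for Mt1. The means spanned 6.74 log2 units for Mt1 and 6.9 for Mt2, against 0.73 for Mt3 and 0.69 for Mtf1. In uninduced HE, HE2 and Prog alike, the array on the second slide had the lowest Mt1 and Mt2. Among induced arrays the lowest was on the second slide in HE2 and on the first in HE.

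Mt3, which lies on the same chromosome within the metallothionein cluster, was not called in any tested comparison. It ranged from 9.2 to 10.81 over all arrays, and its differences with Dox were -0.02 in HE, -0.19 in HE2, -0.27 in Prog (-1.13 to 0.59, adjusted P = 0.77) and -0.35 in myeloid progenitors (-1.05 to 0.36, adjusted P = 0.61). Mt4, the remaining gene of the cluster, was not called at any stage, with -1.06 in Prog and -0.14 to 0.12 elsewhere.

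Mtf1, the zinc sensor, was not called in any tested comparison. Its log2 intensity was 8.21, 8.64 and 8.65 in uninduced HE and 9.08, 9.24 and 8.99 in induced HE, so all induced arrays were above all uninduced ones, as for 14.2% of all genes. The difference was 0.60 (0.19 to 1.02), and the mean over its 3 probes, of which the dimmest was not well above background on any array, gave 0.23. In HE2 it was 0.32, in Prog -0.15 (adjusted P = 0.784) and in myeloid progenitors -0.11 (adjusted P = 0.84), and it was not called from Prog to myeloid progenitors without Dox (0.15).

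Slc30a1, the zinc exporter that MTF1 is known to activate, differed from Mt1 and Mt2 in direction in HE, where it was not tested. It read 9.88, 10.79 and 10.69 in uninduced HE and 9.21, 9.36 and 9.44 in induced HE, so all induced arrays were below all uninduced ones, as for 10.9% of all genes. The difference was -1.12 (-1.66 to -0.58), or 2.17-fold lower, in the cells in which Mt1 and Mt2 differed most. In HE2 it read 9.55, 9.79 and 9.14 without and 9.26, 8.88 and 9.61 with Dox, which overlapped, with a difference of -0.25.

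In Prog, Slc30a1 read 8.9 and 8.33 without and 9.14 and 9.71 with Dox, a difference of 0.81 (0.14 to 1.47, adjusted P = 0.157) in which all induced arrays were higher, as for 22.6% of all genes. In myeloid progenitors it read 11.66, 12.16 and 11.96 without and 11.29, 11.5 and 11.44 with Dox, a difference of -0.52 (-1.06 to 0.02, adjusted P = 0.22) in which all induced arrays were lower, as for 22.7% of all genes. Neither was called, and their difference of -1.33 (-2.18 to -0.47, adjusted P = 0.143) was not called either.

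Its clearest change was developmental. Slc30a1 was lowest in uninduced Prog and rose by 3.31 (2.7 to 3.91, adjusted P = 2.05e-07), or 9.91-fold, in myeloid progenitors without Dox. It was 2.7 higher with slide as a block (adjusted P = 0.0068) and 3.52 higher than the Prog array on the same slide. At the earlier steps it was 0.96 lower in HE2 than in HE and 0.88 lower in Prog than in HE2, with no test. Slc30a1, Mt1 and Mt2 thus all rose from Prog to myeloid progenitors without Dox. With Dox the mean of Slc30a1 was lower in HE and myeloid progenitors, where those of Mt1 and Mt2 were higher. In Prog the means of Slc30a1, Mt1 and Mt2 were all higher with Dox. The difference of Slc30a1 with Dox was not tested in HE and not called in Prog or myeloid progenitors.

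Among the other zinc exporters of the SLC30 family, 8 of 9 were tested, and the median change with Dox was 0.14 in HE, 0.12 in HE2, 0.01 in Prog and -0.08 in myeloid progenitors, against -0.008, -0.027, -0.044 and -0.018 for all genes. Of all genes, 4.7% were called higher and 2.39% lower in HE, and 5.17% and 2.05% in HE2. Slc30a2, which loads zinc into vesicles, rose by 1.41 in HE and by 1.10 in myeloid progenitors (adjusted P = 0.00886). Slc30a10, a manganese exporter at the cell surface, rose by 1.24 in Prog (adjusted P = 0.0239), where the second uninduced array was not well above background, and fell by 1.19 in myeloid progenitors (adjusted P = 0.00365). Those 2 changes of Slc30a10 differed by -2.42 (adjusted P = 0.00606), which was called and rests on the same dim array. Slc30a3, which fills synaptic vesicles, was not well above background on any of the 3 uninduced myeloid arrays and at least 6.23-fold higher with Dox (adjusted P = 0.00179). Its mean was also higher with Dox in HE, HE2 and Prog, where it was not called. In Prog it read 6.28 and 5.77 without and 7.92 and 8.71 with Dox. In HE2 none of the 8 was called in limma, and 2 had an unadjusted P under 0.05.

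Slc39a10, the zinc importer, was highest in the early stages and was not called with Dox at the stages tested. It read 11.57, 11.83 and 12.81 in uninduced and 12.31, 11.95 and 11.99 in induced HE, a difference of 0.01. In HE2 it read 11.64, 11.32 and 11.65 without and 11.68, 12.11 and 11.71 with Dox, where all induced arrays were higher by a small margin, as for 17% of all genes, and the difference was 0.30. In Prog the difference was -0.51 (-1.32 to 0.3, adjusted P = 0.499) and in myeloid progenitors 0.47 (-0.19 to 1.13, adjusted P = 0.406).

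Without Dox, Slc39a10 read 11.25 and 11.39 in Prog and 9.73, 9.51 and 9.12 in myeloid progenitors, and fell by 1.87 (-2.61 to -1.13, adjusted P = 6e-04), the opposite direction to the exporter Slc30a1. The call changed with the slides compared. The additional Prog array on the myeloid slide read 9.95, which was 1.37 below the other Prog arrays, and the myeloid arrays were only 0.50 below it. With slide as a block the difference was -0.69 and not called (adjusted P = 0.685), and the call was also lost without the second uninduced Prog array (-1.80, adjusted P = 0.0107).

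Of the other importers of the SLC39 family, 12 of 13 were tested and the median changes with Dox were 0.1, -0.11, -0.15 and -0.11 from HE to myeloid progenitors. Slc39a4, the importer by which the gut takes up zinc, rose by 1.61 in myeloid progenitors (adjusted P = 9.95e-06) and was the only one called with Dox. The change was 1.46 greater than in Prog (adjusted P = 0.0191), which was called. In HE, HE2 and Prog none was called in limma, and 2, 3 and 2 of the 12 had an unadjusted P under 0.05. From Prog to myeloid progenitors without Dox, Slc39a8 rose by 3.30 and Slc39a4 fell by 2.80, and among the exporters Slc30a6 fell by 1.23 and Slc30a10 rose by 5.12, although only 1 of the 2 uninduced Prog arrays had it well above background.

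**Figure D5:**
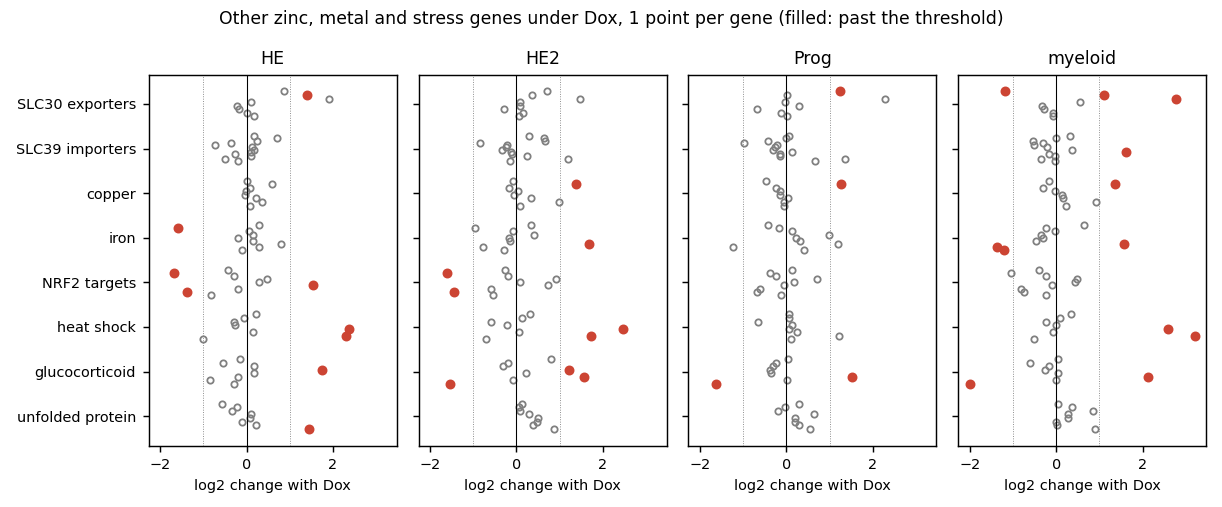
Log2 change with Dox (horizontal axis) of single genes of other lists for zinc, copper, iron and stress handling, in one panel per stage; filled points passed the call rule and open points did not. Most genes lie between -1 and 1, and the called genes include Atp7a in HE2, Prog and myeloid progenitors and Hspa1a and Hspb1 in HE, HE2 and myeloid progenitors.

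Other metal handling genes were described by lists chosen with earlier results of these data known. For copper, 8 of 9 genes were tested, and Atp7a, which pumps copper out of the cytosol, was the only one called, rising by 1.38 in HE2 (adjusted P = 0.000109), 1.27 in Prog (adjusted P = 0.00344) and 1.35 in myeloid progenitors (adjusted P = 0.000112). In HE it was 0.60 higher and none of the 8 was called, with 1 at an unadjusted P under 0.05. For iron, all 9 genes were tested. Fth1, the heavy chain of the iron store ferritin, fell by 1.60 in HE, and Slc40a1, the iron exporter ferroportin, rose by 1.69 in HE2 and 1.56 in myeloid progenitors. The transferrin receptor Tfrc fell by 1.22 and the ferrireductase Steap3 by 1.38 in myeloid progenitors, and in Prog none was called in limma, with 1 higher and 1 lower at an unadjusted P under 0.05.

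Stress responses that are also known to raise metallothioneins were examined next. Among 8 heat shock genes, Hspa1a rose by 2.38 in HE, 2.47 in HE2 and 2.59 in myeloid progenitors, and Hspb1 by 2.31, 1.72 and 3.22, while the list medians were 0.05, 0.09, 0.08 and 0.04 from HE to myeloid progenitors. In Prog none of the 8 was called in limma, with 1 higher and 1 lower at an unadjusted P under 0.05, and Hspa1a differed by 0.06. Hspa1a has a near-identical copy, Hspa1b, so its probe may read both. Among 9 targets of the oxidative stress factor NRF2, Gclm and Srxn1 fell by 1.69 and 1.38 in HE and by 1.62 and 1.44 in HE2, Nqo1 rose by 1.54 in HE, and Hmox1 was not called at any stage. Medians of this list were -0.3, -0.27, -0.12 and -0.25, and in Prog and myeloid progenitors none was called in limma, with 1 lower and with 1 higher and 4 lower at an unadjusted P under 0.05.

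Glucocorticoids also induce metallothioneins. Of 8 genes of the glucocorticoid response, the receptor Nr3c1 rose by 1.74 in HE and 1.21 in HE2. The target Sgk1, a kinase, rose by 1.56 in HE2, 1.52 in Prog and 2.12 in myeloid progenitors. In contrast, the target Zbtb16 fell by 1.55 in HE2, fell by 1.63 in Prog and fell by 2.01 in myeloid progenitors, and the targets Fkbp5, Tsc22d3 and Per1 were not called at any. Of 8 genes of the unfolded protein and amino acid response, only Trib3 in HE was called, rising by 1.44, and 2, 0 and 2 had an unadjusted P under 0.05 in HE2, Prog and myeloid progenitors.

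The genes whose group means ran most like Mt1 over the 8 groups were Tcp11l2 (Pearson r = 0.997), Tent5a (0.991), Dok1 (0.966), Pts (0.963) and Gaa (0.96). For Mt2 they were Parp4 (0.99), Bach1, a haem-binding repressor (0.984), N4bp2l1 (0.979), Fnip1 (0.978) and Gramd1b (0.976). Pearson r takes no account of size. The group means spanned 0.5 (Gaa) to 3.37 (Tent5a) log2 units in the first set, against 6.74 for Mt1. In the second they spanned 0.97 (Parp4 and Bach1) to 2.49 (N4bp2l1), against 6.9 for Mt2. The correlations describe 8 means that share arrays, slides and the stage order, and no gene was common to the 2 sets of 5.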

How the data were processed

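The arrays were 1-colour Agilent SurePrint G3 Mouse arrays, 23 in all, of which 22 entered the fit. Scanner files hold the deposited spot intensity of each array, which was not normalised. It was extracted with Agilent Feature Extraction, version 10.7.3.1 per the file headers but 10.7.1.1 in the submitters' processing notes. The authors also deposited a table of log2 values, whose array medians were 6.69 to 6.7 and which correlated with the values used here at 0.9724 to 0.9972; it served as an alternative.

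Following the study's methods, the median signal was background-corrected with normexp (offset 16) over all spots, after which 3671 control spots and 100 to 346 outlier spots per array were left out of 59305 others, and arrays were quantile-normalised in limma 3.58.1 (R 4.3.3). Spots were averaged to 55681 probes, of which 26582 matched a symbol of RefSeq (20145 genes). The brightest probe stood for each gene, and the 15202 genes that reached a log2 value of 6.5 on any array were fitted over the 8 groups by lmFit and eBayes. Genes were called at P of at most 0.001 and 2-fold. The number of arrays limits the precision.

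The 6 genes and all lists were chosen with earlier results of these data known. By the naming rule, all 6 genes, the called genes of each list and the 5 genes most like Mt1 and Mt2 over the group means were named. For the 6 genes, the HE and HE2 differences with Dox, the stage steps with Dox and the uninduced steps from HE to HE2 and HE2 to Prog were not tested; a test planned for the last was dropped because its arrays entered the choice of the genes. Uninduced HE and HE2 of the same replicate number deviated together (correlations 0.394, 0.795 and 0.608), and these pairs also shared a slide. Elsewhere such correlations had mixed signs, from -0.534 to 0.694, and the main fit used no pairing. The script was tested on simulated data. Alternatives were the offset, scaling to the 75th percentile, the deposited values, the filter, the probe rule, the slide, the replicate number, the groups fitted, the adjusted P and leaving out each array; values within the third slide were added after the data had been seen.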

Additional observations from a re-analysis of the deposited data

Results flagged for a closer look

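Slc30a1 was flagged because its arrays moved in opposite directions with Dox at different stages. Its log2 difference was 0.81 in Prog, where both induced arrays were above both uninduced ones, and -1.12 in HE and -0.52 in myeloid progenitors, where all induced arrays were below all uninduced ones. The difference between Prog and myeloid progenitors had an unadjusted P of 0.00444 and an adjusted P of 0.143 in limma and was not called; that between Prog and HE was not tested. On the first slide the Prog difference was 0.24 and on the third slide, against the additional uninduced array, 1.3.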

How the results depend on the processing

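Of 1092 values of 64 results under alternative settings, 1065 kept their direction and side of the threshold or, where there was no test, moved by less than the spread between arrays. The differences in HE, HE2 and myeloid progenitors with Dox ranged from 5.03 to 5.62, 2.67 to 3.12 and 1.64 to 2.18 for Mt1 and from 5.46 to 5.85, 4.35 to 4.83 and 3.04 to 3.66 for Mt2, and Mt2 in Prog from 1.8 to 2.58. Where a result did not hold, the cause was not tested. Fitting the compared groups alone ended the calls of Mt1 from Prog to myeloid progenitors (1.57) and Mt2 with Dox in Prog (2.19). With the slide as a block, Mt1 (1.83) and Slc39a10 (-0.69) from Prog to myeloid progenitors were not, and the signs turned of Mt3 at that step (0.09) and of Mtf1 (0.11) and Slc39a10 (0.15) with Dox in Prog. With 75th percentile scaling, which moved the median of all genes by -0.309 from Prog to myeloid progenitors, -0.225 with Dox in Prog and -0.123 and -0.106 with Dox in myeloid progenitors and HE2, Mt1 from Prog to myeloid progenitors was 1.11 and not called, and Mt2 and Mt3 from HE to HE2, which were not tested, were -0.01 and 0.04. With the additional array fitted among the uninduced Prog arrays, Mtf1 was 0.12 with Dox in Prog and -0.11 from HE2 to Prog, and with the mean of its probes it was -0.02 at that step.

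Leaving out each array gave 1.58 to 2.22 for Mt1 from HE to HE2, 0.58 to 1.78 from HE2 to Prog and 0.97 to 2.17 from Prog to myeloid progenitors, and -0.16 to 0.23 for Mt2 from HE to HE2. For Mt3 it gave -0.61 to 0.07 with Dox in Prog, -0.49 to 0.32 from HE to HE2 and -0.14 to 0.41 from HE2 to Prog, for Mtf1 -0.4 to 0.1 with Dox in Prog and -0.27 to 0 in myeloid progenitors, and for Slc39a10 -1.03 to 0.02 with Dox in Prog. Over all genes, the slide block lowered the calls with Dox in Prog from 567 to 331 and those from Prog to myeloid progenitors from 2118 to 574. With the replicate number as a block, Mt1 was 5.41 higher with Dox in HE and 1.97 higher from HE to HE2, and no call of the 6 genes changed. Prog, with 2 arrays a group, has the widest intervals, and whether the Mt1 and Mt2 probes detect each other's transcript was not tested.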
